A study of Mus musculus with 16 samples.

Results

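Autotaxin (gene Enpp2), 3 receptors for lysophosphatidic acid (Lpar1, Lpar4 and Lpar6), the sphingosine kinase Sphk1, the sphingosine 1-phosphate receptor S1pr1 and the lipid phosphate phosphatases Plpp1 and Plpp3 were followed through RNA-seq libraries of lymphatic endothelial cells sorted from mouse hearts. These 8 genes were taken by symbol from a table of 15895 genes. They were chosen because Enpp2 stood on opposite sides of its sham level after myocardial infarction (MI) at the 2 ages studied, so the values of MI against sham for these 8 genes describe that choice, and nothing is read from their calls. The mice were CD1. The 4 groups of 4 libraries were sham-operated neonates (sham P1), neonates with MI at postnatal day 1 (MI P1), sham-operated adults (sham P56) and adults with MI at postnatal day 56 (MI P56), all taken 3 days after surgery. The cells lacked CD45, the pan-leukocyte marker, and carried CD31, the pan-endothelial marker, and podoplanin, which lymphatic endothelium shares with some other cells.

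The ages also differed in how the cells were made. Neonatal ventricles were pooled in groups of 6, cut up and digested in a stirrer, while the adults were males whose hearts were digested by perfusion through the aorta. Age, sex, pooling and digestion therefore cannot be told apart in any comparison of P56 with P1. The labels do not say how the libraries of a group relate to animals, so the p-values measure the spread between libraries, which may be technical.

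Lysophosphatidic acid (LPA) and sphingosine 1-phosphate (S1P) are small signalling lipids that act outside the cell through G protein-coupled receptors. Autotaxin is a secreted enzyme that makes LPA from lysophosphatidylcholine, and the lipid phosphate phosphatases remove the phosphate of LPA and S1P at the cell surface and so end the signal. In lymphatic endothelium, S1P made by sphingosine kinases and exported by Spns2 guides lymphocytes out of tissues, and S1pr1 on the endothelium itself acts on cell junctions and vessel growth.

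Levels are given in the deposited unit, CPM (read counts relative to the library size) after scaling by the trimmed mean of M-values (TMM), written "value" below. The 13 libraries used in the main results held 17103319 to 26904599 reads on listed genes and a read on 14121 to 15821 genes. The other 3, sham P1 libraries 1 and 2 and MI P56 library 5, had a read on 7746 to 9451 genes. They stand apart from the rest in that number, and results are given with and without them. This left 2 libraries of sham P1, 4 of MI P1, 4 of sham P56 and 3 of MI P56. The gene Uqcrc1 took 18.1% to 99.8% of the reads in the 3 left out, and it also took 47.3% in sham P1 library 5, which was kept and is 1 of the 2 libraries behind every neonatal sham value. In the other 12 it took at most 4.11%. Mitochondrial rRNA took 27.7% to 51.7% of the reads in the 13 libraries. Without it and Uqcrc1, they held 6709566 to 12918569 reads, the fewest in sham P1 library 5. All 8 genes passed the filter on low values (2 or more libraries with a value of 1 or more), as did 14496 genes in all. The lymphatic markers were present in all 13 libraries: Prox1, the transcription factor that sets lymphatic identity, lay between 139 and 516, and Lyve1, the hyaluronan receptor of lymphatics, between 180 and 757. Transcripts of other cell types were present as well. The sum of 10 fibroblast markers ranged from 715 to 5110, beside 1202 to 3553 for the sum of the 9 lymphatic markers listed.

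The genes lie on 7 chromosomes of the mm10 build. Positions are those of the deposited table: Enpp2 at chr15:54838898-54920146 on the minus strand, Lpar1 at chr4:58435255-58553898 on the minus strand, Lpar4 at chrX:106920625-106933900 on the plus strand and Lpar6 at chr14:73237895-73243294 on the plus strand. S1pr1 lies at chr3:115710433-115715072 on the minus strand, Sphk1 at chr11:116530925-116536674, Plpp1 at chr13:112800894-112867881 and Plpp3 at chr4:105157347-105232764, the last 3 on the plus strand. Lpar6 lies inside Rb1, the retinoblastoma gene, which runs on the opposite strand. Lpar1 overlaps the pseudogene Gm12577, which runs on the same strand. Plpp1 overlaps Mtrex and Sphk1 overlaps the antisense gene Gm29292, both on the opposite strand. These are overlaps of whole gene spans, and whether exons are shared was not examined. Whether the counting used strand is not given in the sources used here, and strand would not part Lpar1 from Gm12577. Reads of these pairs therefore cannot be told apart here, and the levels of Lpar1, Lpar6, Plpp1 and Sphk1 are uncertain to that extent.

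The promoters of Plpp3, Lpar6 and Lpar4 are shown because these genes have a single annotated start each and because their MI libraries did not overlap between the ages, Plpp3 and Lpar6 being higher at P56 and Lpar4 lower. Each run covers 250 bases before the start of the gene and 50 bases after it, from RefSeq on GRCm38.p6, the assembly that mm10 names. Promoter entries matched 5 of the 8 genes, and Enpp2, S1pr1 and Plpp1 are named only. Capitals mark matches on either strand to 4 motifs: the AP-1 motif TGANTCA, the TEAD motif GGAATG, the KLF motif CACCC and the GATA motif AGATAA. The motifs share no letters at the matches found. All lie on the plus strand of their chromosomes, at chr4:105157097-105157396 for Plpp3, chr14:73237641-73237940 for Lpar6 and chrX:106920375-106920674 for Lpar4.
Plpp3: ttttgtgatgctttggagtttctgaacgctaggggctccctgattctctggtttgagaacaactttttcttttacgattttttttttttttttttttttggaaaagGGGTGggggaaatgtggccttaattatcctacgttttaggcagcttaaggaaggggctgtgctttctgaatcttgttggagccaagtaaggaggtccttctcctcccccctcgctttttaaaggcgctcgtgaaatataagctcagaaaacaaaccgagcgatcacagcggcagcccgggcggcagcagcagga
Lpar6: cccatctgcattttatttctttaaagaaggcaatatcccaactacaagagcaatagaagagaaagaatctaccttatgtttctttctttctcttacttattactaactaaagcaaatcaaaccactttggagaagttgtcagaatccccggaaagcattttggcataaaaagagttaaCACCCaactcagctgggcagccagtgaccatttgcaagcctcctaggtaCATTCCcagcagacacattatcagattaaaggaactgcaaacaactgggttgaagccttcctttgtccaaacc
Lpar4: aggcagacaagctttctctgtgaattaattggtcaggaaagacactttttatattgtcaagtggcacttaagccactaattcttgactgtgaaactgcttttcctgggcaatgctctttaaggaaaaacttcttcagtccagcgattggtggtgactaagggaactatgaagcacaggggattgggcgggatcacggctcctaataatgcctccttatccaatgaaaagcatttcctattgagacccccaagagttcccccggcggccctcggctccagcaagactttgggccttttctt
The Plpp3 window held 1 KLF match, the Lpar6 window held 1 KLF and 1 TEAD match, and the Lpar4 window held none of the 4 motifs. Of all 32817 promoters of this length, 57.5% held the KLF motif, 14.7% the TEAD motif, 11.2% the GATA motif and 7.81% the AP-1 motif. The Lpar6 window held 1 CpG, against a median of 7 over all promoters, and the Plpp3 window held 11. No measurement of the promoters themselves was among the data, so these matches describe the letters of these windows.

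Enpp2, the autotaxin gene, was the member with the highest ratio between its highest and lowest group means. In the sham P1 libraries its values were 6.77 and 5.51. In the MI P1 libraries they were 29.0, 22.7, 39.9 and 36.7. All 4 neonatal MI libraries lay above both neonatal sham libraries, with means of 32.1 ± 7.75 (SD, n = 4) and 6.14 ± 0.894 (SD, n = 2), a ratio of 5.23. At P56 the order was the other way round. The sham P56 values were 20.8, 36.3, 18.3 and 23.0, and the MI P56 values were 7.86, 19.8 and 10.3. Here the groups overlapped, since the highest MI library (19.8) lay above the lowest sham library (18.3). The adult means were 24.6 ± 8.04 (SD, n = 4) in sham and 12.7 ± 6.32 (SD, n = 3) after MI, 1.94 times higher in sham. On the log2(value + 1) scale the difference of MI from sham was 2.19 (SE 0.35) at P1 and -0.95 (SE 0.30) at P56, and the 2 responses differed by -3.14 (SE 0.46). Over all 16 libraries these differences were 1.98 (SE 0.49), -0.83 (SE 0.49) and -2.81 (SE 0.69).

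Between the ages, Enpp2 was 4.01 times higher in sham P56 than in sham P1 and 2.53 times lower in MI P56 than in MI P1, and neither pair of groups overlapped. Enpp2 was chosen from these libraries, so this too is a description. The sham P1 level rests on 2 libraries with 321 and 152 reads, and the 2 sham P1 libraries left out held 27 and 5 reads of Enpp2. In a bulk sample, fewer cells of a type and less RNA per cell cannot be told apart. The summed values of 10 blood endothelial markers, all in the table, moved beside Enpp2 in both comparisons of MI with sham and between the ages in sham, but not between the ages after MI. They ranged from 70.0 to 97.4 in sham P1, 110 to 194 in MI P1, 268 to 566 in sham P56 and 137 to 222 in MI P56. The sum of 8 mesothelial markers ranged from 71.8 to 156, 105 to 239, 74.5 to 425 and 43.1 to 99.2 in the same order. The median log2 difference of these 8 was 1.09 for MI against sham at P1, -0.21 at P56, -0.16 between the ages in sham (P56 minus P1) and -1.40 between them in the MI libraries, where 1 was called lower. The sum of 10 cardiomyocyte markers ranged from 149 to 226, 98.4 to 346, 1284 to 2326 and 322 to 571 in the same order, and 9 of them were called lower after MI at P56. The sum of 8 pericyte and smooth muscle markers ranged from 111 to 235, 114 to 305, 453 to 1171 and 217 to 352 in the same order. Of these 8, 3 were called higher at P56 in sham. After MI at P56, 1 was called higher and 2 lower. No marker of these lists was at 0 throughout a group, and their part in the Enpp2 result was not tested.

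**Figure D1:**
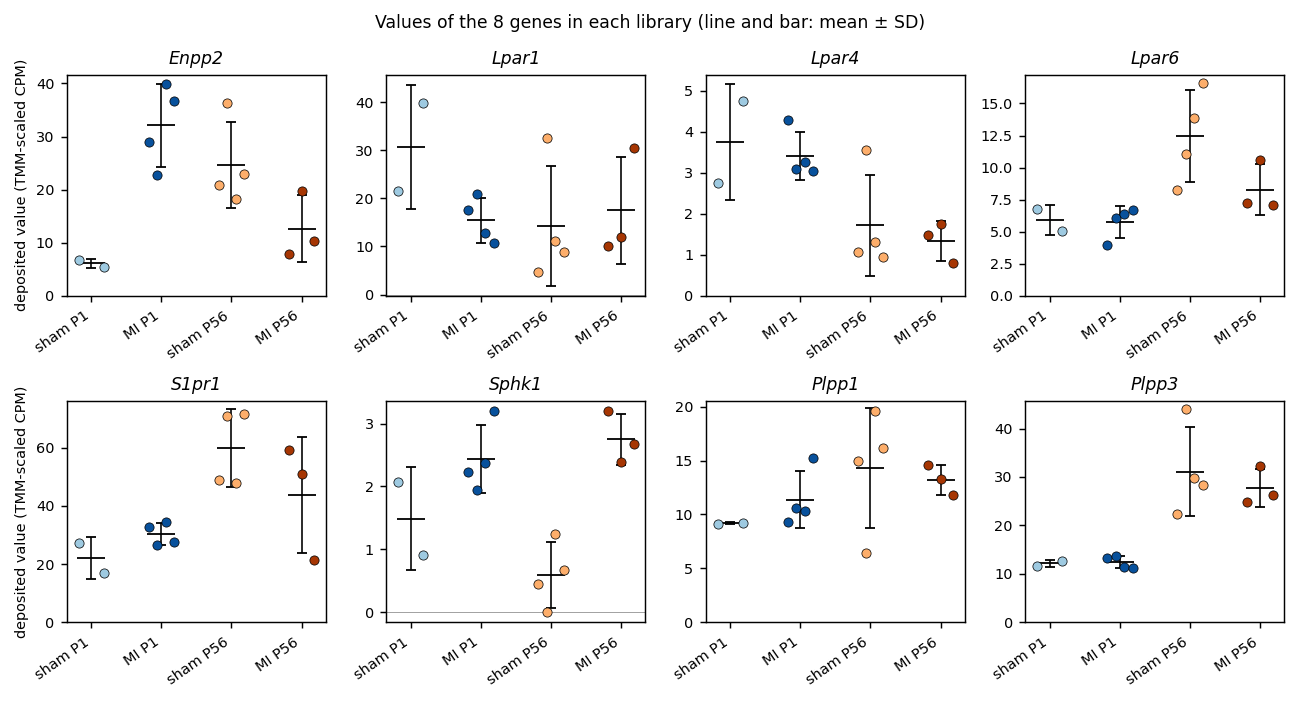
Values of the 8 genes in the 13 libraries used, by group, in the deposited unit (TMM-scaled CPM); each point is 1 library, the line is the group mean and the bar is 1 SD on either side. Enpp2 runs from 6.14 on average in sham P1 to 32.1 in MI P1, and from 24.6 in sham P56 to 12.7 in MI P56.

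Lpar1 was the most variable of the LPA receptors. This receptor couples to several G protein classes and is prominent in fibroblasts. Its values were 21.5 and 39.8 in sham P1, and 17.5, 21.0, 12.8 and 10.6 in MI P1. Every neonatal MI library lay below both neonatal sham libraries, although the gap between the nearest ones (21.0 and 21.5) was small. In sham P56 the values were 4.66, 32.6, 11.1 and 8.83, and in MI P56 10.1, 12.0 and 30.4. Single libraries stood out within both adult groups, and the groups overlapped. The log2 difference of MI from sham was -0.92 (SE 0.52) at P1 and 0.44 (SE 0.46) at P56. The library with the highest Lpar1 in each group was also the one with the highest fibroblast marker sum: 4546 in sham P1 library 5, 3769 in MI P1 library 2, 3544 in sham P56 library 2 and 5110 in MI P56 library 3. The part of these transcripts in the Lpar1 values was not tested.

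Lpar1 did not pass the test between ages, with a log2 difference of P56 from P1 of -1.31 (SE 0.52) in sham (limma, adjusted p = 0.116) and 0.05 (SE 0.46) after MI (adjusted p = 0.973). Without sham P56 library 2, which held 32.6, the sham difference was -1.79 and the adjusted p was 0.0054 (limma). That fit called 2336 of all 14496 genes, against 1763 with the library kept. Without sham P1 library 5 the difference was -0.88. Sham P56 library 2 also had the fewest genes with a read among the 13.

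Lpar4, a receptor that takes part in vessel formation in mouse and zebrafish, was low throughout. Its values were 2.74 and 4.75 in sham P1, 4.29, 3.09, 3.27 and 3.04 in MI P1, 1.08, 3.54, 1.32 and 0.936 in sham P56 and 1.49, 1.75 and 0.798 in MI P56. After MI, all 3 adult libraries lay below all 4 neonatal ones, and in sham the ages overlapped through sham P56 library 2. The log2 difference of P56 from P1 was -0.86 (SE 0.41) in sham (limma, adjusted p = 0.187) and -0.93 (SE 0.36) after MI (adjusted p = 0.158). Neither passed the threshold, but the sham difference did so without sham P56 library 2 (-1.14, limma, adjusted p = 0.029), where 2336 of all genes were called against 1763 with it. Without sham P1 library 5 the difference was -0.55. MI and sham libraries overlapped at both ages, with log2 differences of -0.08 (SE 0.41) at P1 and -0.14 (SE 0.36) at P56.

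Lpar6, the receptor whose loss in humans causes a hair disorder, was at 6.77 and 5.07 in sham P1 and at 3.93, 6.09, 6.38 and 6.71 in MI P1. In sham P56 it was at 8.29, 11.1, 13.9 and 16.6, and in MI P56 at 7.21, 10.6 and 7.10. The adult libraries lay above the neonatal ones in sham and after MI, with means 2.11 and 1.43 times higher. The log2 difference did not pass the test in sham (0.93, SE 0.33, limma, adjusted p = 0.0756) or after MI (0.46, SE 0.29, adjusted p = 0.459). DESeq2 on the recovered reads called the sham difference (1.04, adjusted p = 0.0425), and called 2278 of all genes there. Rb1, in whose gene Lpar6 lies, averaged 18.8 ± 5.28 (SD, n = 2) in sham P1, 17.4 ± 2.01 (SD, n = 4) in MI P1, 27.7 ± 7.87 (SD, n = 4) in sham P56 and 17.8 ± 0.297 (SD, n = 3) in MI P56. Both genes were thus highest in sham P56, and the share of Rb1 reads in the Lpar6 values was not tested. With all 16 libraries the sham difference of Lpar6 turned to -0.95 (SE 0.92), because sham P1 library 1 held a value of 406 for this gene.

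Per kilobase of exon, the 3 receptors took different shares of their summed level at the 2 ages. In sham P1, Lpar1 made up 72.5% and 81.9% of the sum, Lpar6 18.1% and 8.27% and Lpar4 the rest. In sham P56, the share of Lpar6 was 53.4%, 19.6%, 46.9% and 57.5%. The share of Lpar6 thus lay above both neonatal sham libraries in every adult sham library, though narrowly in library 2. After MI the Lpar6 share ranged from 12.5% to 28.0% at P1 and from 15.3% to 37.8% at P56, and the ages overlapped. The Lpar4 share ranged from 10.8% to 17.4% in MI P1 and from 2.19% to 8.67% in MI P56, with no overlap. Lpar2, which was in the table but below the filter, averaged 0.343 over the 13 libraries.

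**Figure D2:**
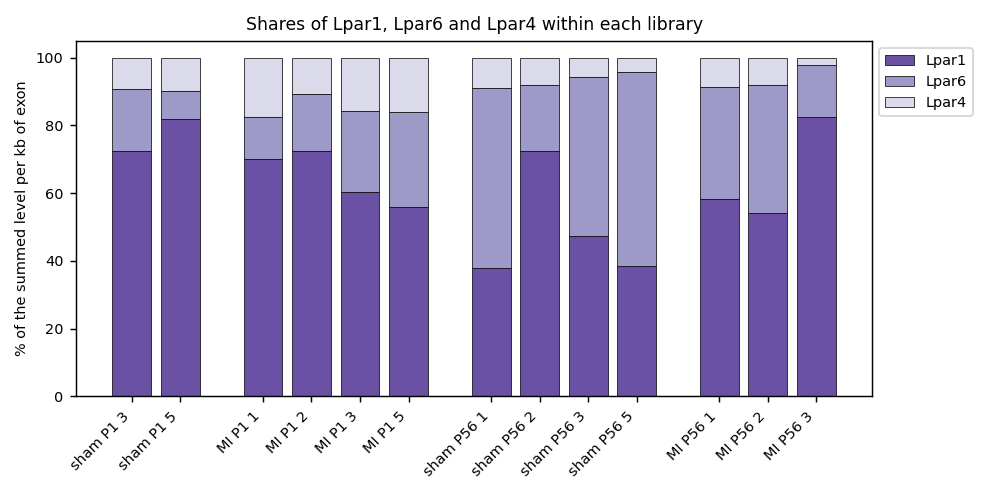
Share of Lpar1, Lpar6 and Lpar4 in their summed level per kilobase of exon, in percent, as 1 stacked bar for each of the 13 libraries, named by group and library number. Lpar1 takes 72.5% and 81.9% in the sham P1 libraries and 37.8% to 72.4% in the sham P56 libraries.

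Plpp3, an ectoenzyme that degrades LPA and S1P at the surface of endothelial cells, was higher at P56 in sham and after MI. Its values were 11.6 and 12.7 in sham P1 and 13.2, 13.7, 11.5 and 11.1 in MI P1. They were 22.3, 44.1, 29.7 and 28.3 in sham P56 and 24.8, 32.2 and 26.3 in MI P56. All 7 adult libraries lay above all 6 neonatal ones. Plpp3 rose by 1.25 on the log2 scale from P1 to P56 in sham (SE 0.27, limma, adjusted p = 0.0043) and by 1.10 after MI (SE 0.24, adjusted p = 0.00987). Both calls rest on the libraries used. Including the 3 left-out libraries, the differences were 0.53 (adjusted p = 0.502) and 0.94 (adjusted p = 0.735), and sham P1 library 1 then held 58.4. Without sham P1 library 3 the sham adjusted p was 0.0623, and without MI P56 library 2 the adjusted p after MI was 0.0695. The blood endothelial marker sums of the MI libraries overlapped between the ages (110 to 194 at P1 and 137 to 222 at P56), and in sham they did not. The same held for the pericyte and smooth muscle sums, at 114 to 305 and 217 to 352 after MI and 111 to 235 and 453 to 1171 in sham. Of other lists, 3 of 10 fibroblast markers (median log2 difference 0.92), 2 of 7 macrophage and monocyte markers (median 0.97) and 1 of 10 cardiomyocyte markers were called higher at P56 after MI. There 1 of 8 mesothelial markers was called lower. The part of these cell types in the Plpp3 results was not tested. MI and sham overlapped at both ages, with log2 differences of 0.02 (SE 0.27) at P1 and -0.12 (SE 0.24) at P56.

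Plpp1, the related phosphatase, was at 9.11 and 9.24 in sham P1, at 9.29, 10.6, 10.3 and 15.2 in MI P1, at 15.0, 6.44, 19.6 and 16.1 in sham P56 and at 14.6, 13.3 and 11.8 in MI P56. The neonatal MI libraries lay above the neonatal sham libraries by a narrow margin, and the adult groups overlapped. The log2 difference of P56 from P1 did not pass the test in sham (0.49, SE 0.35, limma, adjusted p = 0.401) or after MI (0.22, SE 0.31, adjusted p = 0.786).

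**Figure D3:**
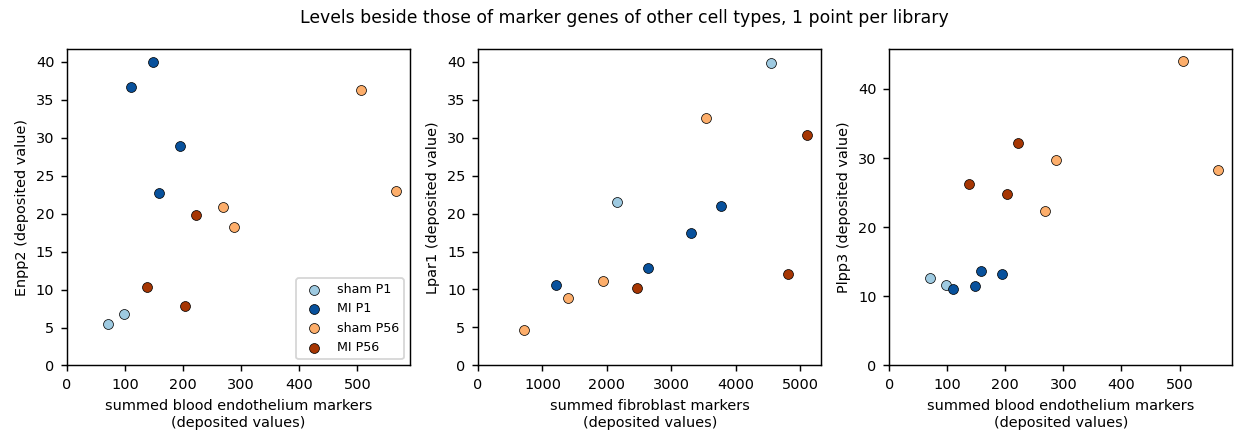
Value of Enpp2 (left) and Plpp3 (right) against the summed values of 10 blood endothelial markers, and of Lpar1 (middle) against those of 10 fibroblast markers, all in the deposited unit, with 1 point for each of the 13 libraries coloured by group. In the left panel the MI P1 libraries have Enpp2 values of 22.7 to 39.9 at marker sums of 110 to 194, and the sham P56 libraries have 18.3 to 36.3 at marker sums of 268 to 566.

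Enpp2, which makes extracellular LPA, and Plpp3, one of the genes whose products remove it, stood in another proportion in MI P1 than in the other groups. Per kilobase of exon, the ratio of Enpp2 to Plpp3 within a library was 0.318 and 0.237 in sham P1, and 1.20, 0.907, 1.90 and 1.81 in MI P1. It lay between 0.336 and 0.509 in sham P56 and between 0.173 and 0.336 in MI P56, a range that took in both sham P1 libraries and reached that of sham P56. The 4 neonatal MI libraries had the 4 highest ratios of the 13, above 1 in 3 of them. The size of the ratios, though not their order, depends on the length used. Enpp2 has 5.779 kb of exons over all transcripts, as used here, and 3.095 kb in its longest one, while Plpp3 has 3.159 kb by both. The annotation that gave these lengths extends Enpp2 to position 54952892, beyond 54920146 in the deposited table, and the effect of this was not tested. These ratios use Enpp2 and so describe the choice of genes, with no test.

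S1pr1, the main S1P receptor of endothelium, had the highest mean of the members in each of the 4 groups per kilobase of exon over all transcripts. In the deposited unit, Lpar1 had a higher mean in sham P1 (30.7 against 22.1) and Enpp2 in MI P1 (32.1 against 30.4). The order per kilobase, here and below, depends on the length used. Enpp2 has 5.779 kb of exons over all transcripts and 3.095 kb in its longest one, Lpar1 has 4.289 and 3.543 kb, and S1pr1 has 3.046 kb by both. The S1pr1 values were 27.3 and 17.0 in sham P1, and 32.6, 26.7, 34.5 and 27.7 in MI P1. In sham P56 they were 48.7, 71.0, 47.8 and 71.7, and in MI P56 59.0, 50.8 and 21.3. All adult sham libraries lay above both neonatal sham libraries, whereas after MI the ages overlapped through MI P56 library 3. S1pr1 rose by 1.41 on the log2 scale from P1 to P56 in sham (SE 0.34, limma, adjusted p = 0.00836), and the difference after MI was 0.40 (SE 0.30, adjusted p = 0.543). With all 16 libraries the sham difference was 1.62 (adjusted p = 0.0327), and without sham P1 library 5 it was 1.08 (adjusted p = 0.194). MI differed from sham by 0.47 (SE 0.34) at P1 and by -0.54 (SE 0.30) at P56, and the groups overlapped at both ages. The blood endothelial marker sum was 507 and 566 in the 2 sham P56 libraries with the higher S1pr1 values and 268 and 287 in the other 2. In sham, 7 of the 10 blood endothelial markers, 3 of 8 pericyte and smooth muscle markers and 10 of 10 cardiomyocyte markers were called higher at P56. Of 10 fibroblast markers, 2 were called higher and 2 lower, and 1 of 7 macrophage and monocyte markers was called lower. The part of these cell types in the S1pr1 result was not tested.

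Sphk1, the kinase that makes S1P from sphingosine, was the member with the lowest mean value in each P1 group and in sham P56. It was at 2.07 and 0.906 in sham P1 and at 2.23, 1.94, 2.37 and 3.20 in MI P1. In sham P56 it was at 0.448, 0, 1.25 and 0.663, and in MI P56 at 3.19, 2.39 and 2.67. The 0 in sham P56 library 2 is 0 reads, which allows a value of up to 0.0776, the worth of 3 reads there, for counting error only. All 3 adult MI libraries lay above all 4 adult sham libraries, with means of 2.75 ± 0.406 (SD, n = 3) and 0.590 ± 0.519 (SD, n = 4), a ratio of 4.67. On the log2(value + 1) scale, which understates changes of low genes, the difference was 1.29 (SE 0.34) at P56 and 0.49 (SE 0.38) at P1, where the groups overlapped. The sum of 7 macrophage and monocyte markers was 6.01 to 9.79 in sham P56 and 16.7 to 86.9 in MI P56, and its part in the Sphk1 values was not tested. Between ages Sphk1 did not pass the test in sham (-0.66, SE 0.38, limma, adjusted p = 0.291) or after MI (0.13, SE 0.34, adjusted p = 0.895).

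Ordered by mean level per kilobase in sham P1, the genes ran S1pr1 (7.26), Lpar1 (7.15), Plpp1 (5.24), Plpp3 (3.85), Lpar6 (1.10), Enpp2 (1.06), Lpar4 (0.883) and Sphk1 (0.311). Of the neighbours in this order, Plpp1 and Plpp3, Plpp3 and Lpar6, and Lpar4 and Sphk1 had ranges that did not overlap. In MI P1, Enpp2 (5.55) came after S1pr1 (9.97) and Plpp1 (6.50), and its range overlapped those of Plpp1 and Plpp3. In sham P56 the order began with S1pr1 (19.6), Plpp3 (9.85), Plpp1 (8.16) and Enpp2 (4.26), and the range of S1pr1 did not overlap that of Plpp3. In MI P56 it began with S1pr1 (14.3), Plpp3 (8.80), Plpp1 (7.55) and Lpar1 (4.08), followed by Enpp2 (2.19), and each of these overlapped the next.

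**Figure D4:**
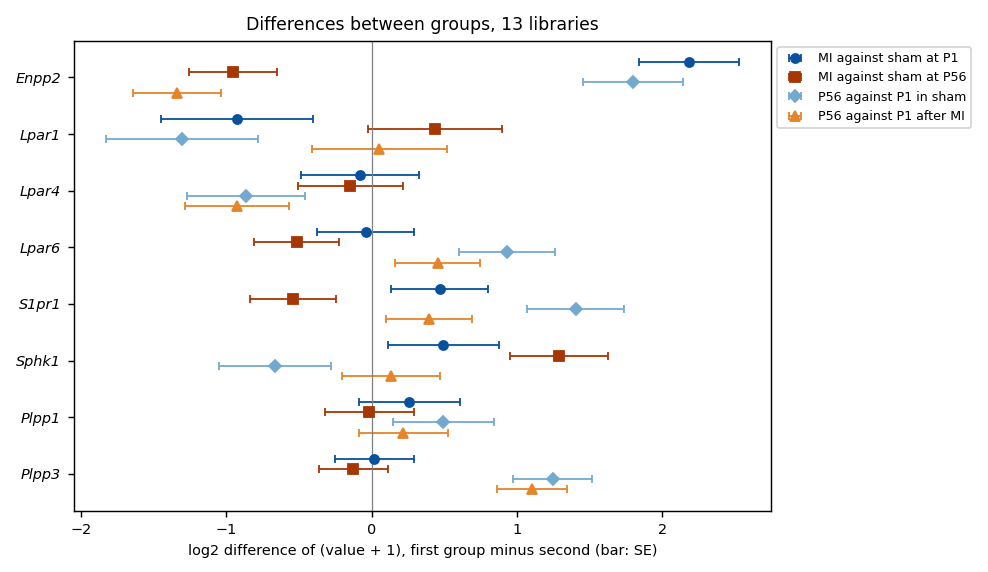
Difference between groups on the log2(value + 1) scale for the 8 genes in the comparisons of MI with sham and of P56 with P1, over the 13 libraries; points are limma estimates and bars 1 SE. Enpp2 lies at 2.19 for MI against sham at P1 and at -0.95 at P56, and Plpp3 lies above 1 in both comparisons of age.

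Counted over the list, 0 of the 8 genes were called in MI against sham at P1 (limma, adjusted p under 0.05), where 0% of all 14496 genes tested were called. At P56 1 of 8 was called, Sphk1, higher, against a background of 3.08% in either direction and 2.17% higher, and in the difference of the MI responses 1 of 8 was called, Enpp2, against 0.414%. These comparisons were used in the choice of genes, so nothing is read from their counts. At an unadjusted p under 0.05, 559 genes passed at P1, and at the adjusted threshold edgeR called 0 genes there and DESeq2 called 6. Enpp2 is left out of the counts between ages, since its values in these libraries chose it. From P1 to P56 in sham, 2 of the other 7 were called, S1pr1 and Plpp3, both higher, beside 12.2% of all genes called in either direction and 5.28% called higher. After MI, 1 of the 7 was called, Plpp3, higher, beside 4.97% of all genes in either direction and 1.97% higher. Over the full set of 16 libraries 1 of the 7 was called for age in sham, S1pr1, where 3.56% of all genes were called, and none of the 7 for age after MI (0.102%). None of the 8 was then called for MI at P1 (0% of all genes), MI at P56 (0.164%) or the difference of the responses (0.00682%).

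The groups of libraries did not overlap for 2 genes that were higher (Enpp2 and Plpp1) and 1 that was lower (Lpar1) after MI at P1, where 8.78% of all genes did so upward and 7.35% downward. At P56 only Sphk1 did so, upward, as did 7.82% of all genes, and none did so downward, as did 5.53%. Nothing is read from these counts either. Of the 7 genes other than Enpp2, 3 lay wholly higher at P56 in sham (Lpar6, S1pr1 and Plpp3), beside 15.6% of all genes. After MI, 3 of the 7 did not overlap between the ages, beside 20.2% of all genes. Lpar6 and Plpp3 lay wholly higher (9.21% of all genes) and Lpar4 wholly lower (10.9%).

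Of 57 other genes of LPA and S1P production, breakdown, transport, receptors and downstream signalling that were listed, 48 were in the table and 46 were tested. The listed genes Lipi, Lpar3, Lpar5, P2ry10, Plpp4, Acer1, S1pr4, S1pr5 and Apom were not analysed here. After MI at P1, 0 of 46 passed the test (limma), as did 0% of all 14496 genes, so nothing particular to these genes is read from it. At an unadjusted p under 0.05, 1 passed, and edgeR and DESeq2 each called 0, beside the counts of all genes given above. At P56, 2 of 46 rose after MI and none fell, where 2.17% of all genes rose and 0.917% fell. They are Ctgf and Cyr61, which encode the matricellular proteins CCN2 and CCN1 and are known to be switched on through the cofactor YAP. The other 6 of the 8 YAP and SRF target genes did not pass, nor did any of the 15 G protein mediators, the 5 LPA acyltransferases or the 3 S1P breakdown enzymes.

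Ctgf was at 8.63, 26.7, 16.1 and 16.02 in sham P56 and at 90.7, 31.9 and 94.5 in MI P56, and rose by 1.98 (SE 0.37, limma, adjusted p = 0.00442). Without MI P56 library 3 the adjusted p was 0.0566. Cyr61 was at 20.9, 4.92, 9.06 and 13.4 in sham P56 and at 56.2, 32.1 and 46.3 in MI P56, and rose by 1.93 (SE 0.33, adjusted p = 0.00226). Its neonatal values lay between 47.0 and 69.7 in all 6 libraries. The adult MI library at 56.2 lay within that range, those at 46.3 and 32.1 lay below it, and all adult sham libraries lay lower still. Markers of other cell types stood beside these changes: after MI at P56, 3 of 10 fibroblast markers (median log2 difference of the 10, 0.57) and 3 of 7 macrophage and monocyte markers (median 1.53) were called higher and 9 of 10 cardiomyocyte markers (median -1.84) lower. Their part was not tested. With all 16 libraries none of the pathway genes was called after MI at P56, with adjusted p = 0.109 for Cyr61 and 0.741 for Ctgf. In the difference of the MI responses between the ages, 0 of 46 passed (limma), beside 0.414% of all genes, and 5 passed at an unadjusted p under 0.05, as did 1544 of all 14496 genes. There edgeR called 0 and DESeq2 called 1 of the pathway genes, beside 28 and 336 of all genes. That gene was Cyr61, whose response was 2.11 (SE 0.49) larger at P56 in limma (adjusted p = 0.0648), and its adjusted p in DESeq2 was 0.0131.

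From P1 to P56 in sham, 2 of the 46 rose and 2 fell, beside 5.28% and 6.88% of all genes. Cyr61 fell by 2.49 (SE 0.37, limma, adjusted p = 0.000172) and Gnai1, an inhibitory G protein subunit, fell by 1.53 (SE 0.47, adjusted p = 0.0383). Ankrd1, a YAP target that is also abundant in cardiomyocytes, rose by 1.96 (SE 0.52, adjusted p = 0.0168), and Acer2, a ceramidase that releases sphingosine, rose by 1.22 (SE 0.38, adjusted p = 0.0424). The sum of 10 cardiomyocyte markers was 149 to 226 in sham P1 and 1284 to 2326 in sham P56, and its part in the Ankrd1 value was not tested. Ankrd1, Gnai1 and Acer2 each missed the threshold when at least 1 of the libraries was left out, with adjusted p = 0.267 for Ankrd1 on leaving out sham P1 library 3. Gnai1 lost its call without either sham P1 library or any of MI P1 libraries 1, 2 and 3 (adjusted p up to 0.299), and Acer2 without any of 7 libraries (adjusted p up to 0.441). Over the 16 libraries only Cyr61 was called (-2.56, adjusted p = 0.00312). In edgeR on the recovered reads, Acer2 (adjusted p = 0.0717), Ankrd1 (0.0571) and Gnai1 (0.0957) did not pass.

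After MI, 2 of the 46 rose from P1 to P56 and none fell, beside 1.97% and 2.99% of all genes. Ctgf rose by 2.37 (SE 0.37, limma, adjusted p = 0.000664). Pla1a, a secreted phospholipase that mainly makes lysophosphatidylserine, rose by 2.41 (SE 0.43, adjusted p = 0.00217). Beside these, 3 of 10 fibroblast markers (median log2 difference of the 10, 0.92) and 2 of 7 macrophage and monocyte markers (median 0.97) were called higher, and their part was not tested. Pla1a was at 0.562, 1.97, 2.97 and 0.527 in MI P1 and at 8.80, 13.2 and 12.1 in MI P56, with no overlap. Neither gene passed over all 16 libraries (adjusted p = 0.745 for Ctgf and 0.304 for Pla1a). In sham, Pla1a was at 3.46 and 7.54 at P1 and at 5.56, 16.9, 20.8 and 10.0 at P56, where the ages overlapped. Spns2, the S1P exporter with the highest mean of its group (14.6), and S1pr3, the higher of the other S1P receptors (12.0), passed the test in none of the 5 comparisons. The same held for the genes with the highest mean of their role on this list, which leaves out the 8 genes above: those among the mediators (Rock2, 239), the breakdown enzymes (Sgpp1, 22.9), the ceramidases and kinases (Asah2, 33.4), the acyltransferases (Agpat3, 9.64) and the phosphatases (Plpp5, 10.3).

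**Figure D5:**
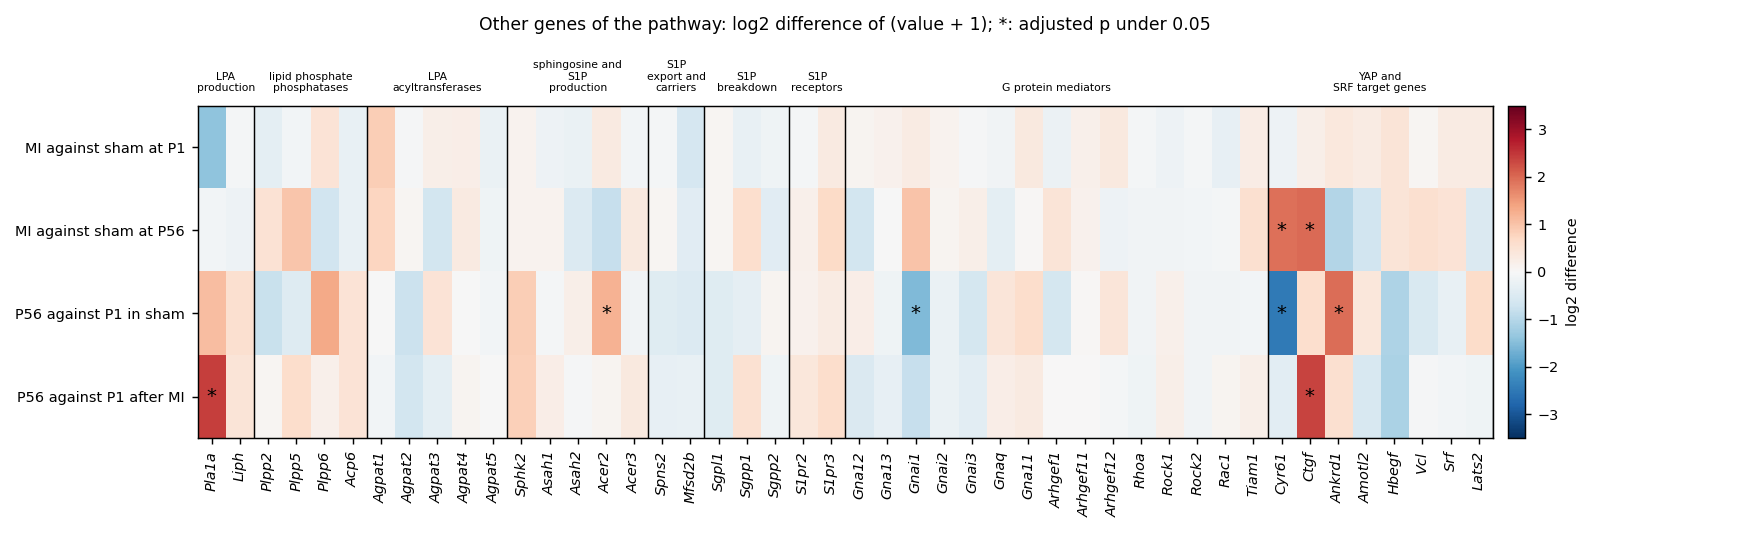
Differences between groups on the log2(value + 1) scale for the 46 other pathway genes tested, ordered by role, in the 2 comparisons of MI with sham and the 2 of P56 with P1; colour gives the limma estimate over the 13 libraries and asterisks mark an adjusted p under 0.05. Of the 8 asterisks, 5 lie among the YAP and SRF target genes, all of them at Ctgf, Cyr61 or Ankrd1. Ctgf lies at 1.98 and Cyr61 at 1.93 for MI against sham at P56, and Ankrd1 at 1.96 and Cyr61 at -2.49 for P56 against P1 in sham. Of all genes, 3.08% were called for MI at P56, 12.2% for age in sham and 4.97% for age after MI.

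The genes with the profile nearest to that of Enpp2 were sought among 6049 genes with a mean of at least 5, by the mean absolute difference between log2 profiles over the 13 libraries after each was centred on its own mean. They were Tmem44 (0.430), Tmtc2 (0.447), Synpo2 (0.450), Cript (0.456) and Ptgs1 (0.462). Synpo2 encodes an actin-binding protein and Ptgs1 encodes cyclooxygenase 1, which makes prostaglandin precursors. Tmem44 averaged 4.38 ± 1.17 (SD, n = 2) in sham P1, 7.95 ± 1.78 (SD, n = 4) in MI P1, 6.39 ± 2.19 (SD, n = 4) in sham P56 and 2.74 ± 1.22 (SD, n = 3) in MI P56. Cript averaged 9.00 ± 0.231 (SD, n = 2), 15.5 ± 4.33 (SD, n = 4), 20.1 ± 7.23 (SD, n = 4) and 11.5 ± 2.70 (SD, n = 3) in the same order. Tmem44, Tmtc2, Synpo2 and Cript had means that were higher in MI P1 than in sham P1 and lower in MI P56 than in sham P56, by little for Synpo2 (8.28 ± 3.09, SD, n = 3, and 8.98 ± 2.85, SD, n = 4), whereas the mean of Ptgs1 was 10.2 ± 3.41 (SD, n = 4) in sham P56 and no lower in MI P56. The profiles share libraries and depth, and the likeness is a description.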

How the data were processed

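Sorted cardiac lymphatic endothelial cells were profiled by single-end RNA-seq. The tools named in the submitters' processing notes are Trimmomatic, STAR, HTSeq and edgeR, with the build mm10 (GRCm38). The deposited table holds a signal per gene, which the authors name CPM. These values came out as whole reads within 0.01 read in 100% of cases, and the recovered reads gave the deposited values back with edgeR's TMM-scaled CPM to within 2.8e-06%. Libraries are numbered as in the table's columns (1, 2, 3 and 5), while the labels number them 1 to 4.

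Values were tested as log2(value + 1) with limma 3.58.1 (trend, R 4.3.3), all groups in 1 fit, two-sided, with Benjamini-Hochberg adjustment over all genes tested and a call at adjusted p under 0.05. Libraries with a read on fewer than 10000 genes were left out of the main fit, and genes needed 2 or more libraries with a value of 1 or more. Exon lengths per gene, taken as the union of exons over all transcripts, came from GENCODE M21. Enpp2 and Plpp1 have other coordinates there than in the deposited table. Alternatives included edgeR 4.0.16 and DESeq2 1.42.0 on the recovered reads, other pseudocounts, filters and scalings, all 16 libraries, library weights, a replicate block and each library left out. The fits were tested on simulated data.

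Genes named are the 8 members, pathway genes called in at least 1 comparison or highest in their role, Rb1, the 5 genes nearest to Enpp2 and cell markers. The members and lists were chosen with earlier results of these data known. Other sequences, transcripts and cell fractions were not used here. Some listed genes are not reported here, and counts over the pathway list leave them out.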

Additional observations from a re-analysis of the deposited data

Results flagged for a closer look

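Lpar4 in sham P56 library 2 was at 3.54, while the other 3 libraries of its group lay between 0.936 and 1.32. Its gap to the nearest of them was 0.852 of the range of the group, above Dixon's 95% critical value for 4 libraries. It was the one such case among 16 gene and group combinations tried, and chance gives about 1 in 20.

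The MI response of Enpp2 differed between P56 and P1 by -3.14 on the log2 scale. The genes were chosen for this difference, so it is a description.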

How the results depend on the processing

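Over the 13 libraries, 0 genes were called for MI against sham at P1, 447 at P56, 60 for the difference of the responses, 1763 for age in sham and 720 for age after MI, and among the 46 pathway genes 0, 2, 0, 4 and 2. With all 16 libraries the last 4 counts of all genes were 24, 1, 522 and 15, and of pathway genes 0, 0, 1 and 0, and the median of all genes moved by up to 0.47 (log2). edgeR called 28 genes for the difference, and for age in sham 1446 genes and 1 pathway gene. DESeq2 called 6, 930 and 336 genes (1 of the pathway) for MI at P1, MI at P56 and their difference, and 1104 for age after MI. Library weights gave 10, 778, 307, 2850 and 1383 genes, and 4, 1 and 7 pathway genes for MI at P56, the difference and age in sham. Fits on only the groups compared, which cannot give the difference, called 2 and 161 genes for MI, 1047 for age in sham (2 of the pathway) and 1245 after MI. A pseudocount of 0.25 or quantile normalization called 2 genes for MI at P1, and a pseudocount of 4 or a stricter filter called 1. The pseudocount of 4 left 32 for the difference. Leaving out 1 library gave 0 to 4, 141 to 647, 1 to 219, 660 to 2336 and 305 to 1383 genes, and 0 to 0, 1 to 3, 0 to 1, 2 to 5 and 2 to 4 pathway genes. The cause of these shifts was not tested. The log2 difference of Sphk1 after MI at P56 was 2.09 with a pseudocount of 0.25, 0.56 with 4 and 2.21 in edgeR. The direction of Enpp2 was the same under all alternatives run, which is a description too, since Enpp2 was chosen by its direction in these libraries. No called value of a named gene changed sign. With library weights the age differences of Lpar1, Lpar4, Lpar6 and Plpp1 in sham and of Lpar4 after MI passed the threshold as well.

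A replicate block on the column number gave 18 genes for the difference, and for age in sham 1243 genes and 2 pathway genes. Of 15 pairs with the same number, 1 had deviations correlated above 0.1 (-0.301 to 0.127), beside 10 of 47 pairs with different numbers. With 2 libraries in sham P1, the deviations of each are the reverse of the other. These correlations therefore cannot settle whether the numbers pair the libraries.

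The sham P1 group rests on 2 libraries, and low genes such as Sphk1 and Lpar4 on 0 to 244 reads.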
